A study of Homo sapiens with 8 samples.

Results

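The comparison described here sets the 4 libraries taken in the middle of a WNT3A time course, at 42 h and 50 h, against the 4 libraries at its end points, 34 h and 72 h, and asks which transcripts stood above, or below, both end points. All 8 of the 8 libraries of the series enter it. ESI017 is a wild-type human embryonic stem cell line. Every library came from cells kept in mTeSR1 with ROCK inhibitor for a day and then moved to N2B27 with SB (10 µM) and LDN (100 nM), per the labels. WNT3A protein (300 ng/mL) was added at 34 h, so the 34 h libraries come before WNT3A, and those at 42, 50 and 72 h come 8, 16 and 38 h after it. Each time point has 2 libraries, replicate 1 and replicate 2, which the labels also number as batches and which the design text calls independent biological replicates. Cells kept without WNT3A past 34 h were not analysed here, so time and WNT3A cannot be told apart. The span between the end points was sampled at 42 h and 50 h alone. With bulk RNA, fewer cells of a type and less RNA per cell cannot be told apart either.

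WNT signalling at the tail end of the embryo keeps a pool of caudal progenitors that express brachyury and the CDX factors and that feed the posterior spinal cord and trunk mesoderm. Secreted WNT and FGF ligands help to hold that pool, and retinoic acid, which CYP26 enzymes break down, opposes it and favours neural differentiation. In the nucleus, WNT signals act through TCF and LEF proteins bound to short DNA motifs near their target genes.

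Values are TPM, length-scaled shares of the transcripts of a library, per gene symbol, and differences are on the log2(TPM + 1) scale, which understates changes of low genes. A gene was called above or below both end points when the limma difference of the middle mean from 34 h and that from 72 h had the same sign and the larger of both p-values, adjusted over all 14908 tested genes, was under 0.05. Both differences use the same middle libraries, so they are not independent. Unless another contrast is named, a limma adjusted p given for a gene is that of this rule. It can exceed the adjusted p of each difference alone, so an uncalled gene can still differ from each end point taken singly. By this rule 31 genes (0.208% of those tested) were above both end points and 4 (0.0268%) were below both; at an unadjusted p under 0.05 the counts were 293 and 125. A weaker contrast, middle against the mean of the end points, called 455 genes higher (3.05%) and 185 lower (1.24%). Of those 455 genes, 133 (29.2%) had a middle mean that lay between the end points, as had 55 of the 185 lower genes (29.7%), so that contrast alone did not mark a transient level.

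**Figure D1:**
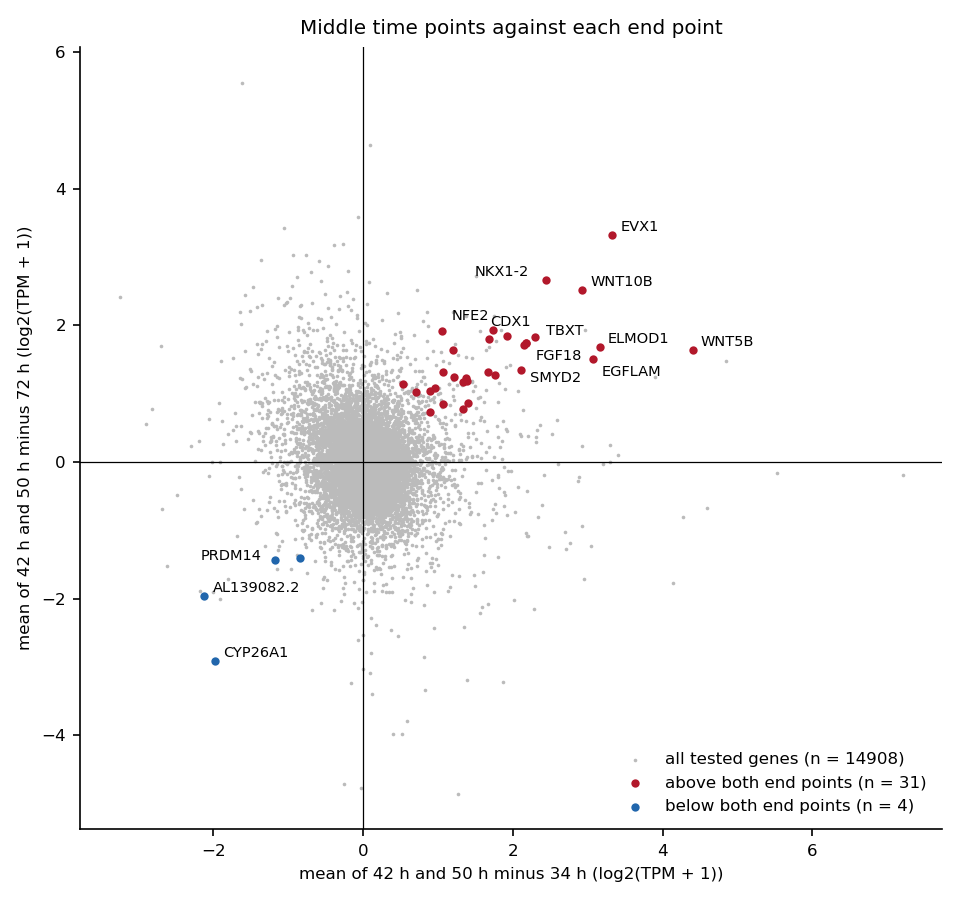
Difference of the middle mean from 34 h (x axis) and from 72 h (y axis), both in log2(TPM + 1), for each tested gene; red and blue points are the genes called above and below both end points. Of the red points, EVX1, WNT10B and NKX1-2 have the largest smaller difference and WNT5B lies farthest to the right. CYP26A1 lies lowest of the 4 blue points.

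The number of calls fell when 1 library was left out. Each such fit has 1 library at 1 time point and 3 residual degrees of freedom in place of 4. Whether the losses came from this or from particular libraries was not tested. Without replicate 1 at 72 h, 3 genes were called above both end points and 0 below, and without replicate 2 at 72 h 9 and 0. Leaving out either library at 34 h gave 11 and 0. Without replicate 1 or replicate 2 at 42 h the counts were 12 and 1, and 17 and 1; without replicate 1 or replicate 2 at 50 h they were 12 and 2, and 24 and 1. At an unadjusted p under 0.05 the 8 fits gave 207 to 306 genes above and 87 to 171 below. EVX1, WNT10B and NKX1-2 were called in all 8 of these fits, and no called gene changed direction in any of them. Where single genes follow, a value in parentheses after a left-out library is again the limma adjusted p. Within replicate 1 and within replicate 2 all 35 genes had the called direction against both end points, which their choice on these libraries nearly fixes and which is no added support. In each of the 35 genes the 4 middle libraries lay wholly beyond the 4 end libraries, which their choice also nearly fixes and which is no added support. Over all tested genes this was so for 479 above (3.21%) and 283 below (1.90%).

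Of the homeobox and T-box factors of the caudal progenitor pool, EVX1, CDX1, NKX1-2 and TBXT were above both end points. EVX1, a homeobox factor of the posterior primitive streak (chromosome 7, 27242700 to 27250493, plus strand), had a listed 0 in both libraries (34 h), 12.9 and 10.6 TPM (42 h), 7.88 and 6.06 (50 h), a listed 0 in both libraries (72 h). It was listed above 0 in the 4 middle libraries alone, and no fold is given against a listed 0 (limma adjusted p 0.00141). CDX1, a caudal-type homeobox factor (chromosome 5, 150166795 to 150184558, plus strand), had a listed 0 in both libraries (34 h), 2.98 and 2.53 TPM (42 h), 3.07 and 2.59 (50 h), 0.0556 and 0.0564 (72 h). Its levels were low throughout, and the middle mean was 1.84 above 72 h (limma adjusted p 0.0146).

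NKX1-2, a homeobox gene of the caudal epiblast (chromosome 10, 124445239 to 124450184, minus strand), was the most abundant of these factors, with 22.4 and 25.3 TPM (34 h), 147 and 133 (42 h), 133 and 122 (50 h), 15.9 and 25.6 (72 h). The 4 middle libraries were close to each other and far above the end libraries, 2.44 ± 0.17 above 34 h and 2.67 ± 0.17 above 72 h (limma adjusted p 0.00214). TBXT, or brachyury, the T-box factor of the primitive streak and axial progenitors (chromosome 6, 166157656 to 166168700, minus strand), had 0.831 and 1.16 TPM (34 h), 11.4 and 7.92 (42 h), 9.62 and 6.83 (50 h), 1.62 and 1.87 (72 h). It stood 2.30 ± 0.21 above 34 h and 1.84 ± 0.21 above 72 h (limma adjusted p 0.0155). Leaving out 1 library at a time, the call of TBXT was kept without replicate 2 at 42 h or replicate 2 at 50 h (0.0350 and 0.0343) and lost without each other library (0.0586 to 0.246). That of CDX1 was kept without replicate 2 at 50 h (0.0453) and lost without each other library (0.0570 to 0.206).

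Counts for the whole list of caudal progenitor genes were 5 of 12 tested members above both end points and 1 below, the latter being CYP26A1 (0.208% and 0.0268% of all tested genes). The 5 were EVX1, CDX1, NKX1-2, TBXT and WNT5B. WNT5B is also on the list of WNT ligands and is counted in both. Against the mean of the end points 7 were higher and 1 lower (3.05% and 1.24% of all tested genes), with a median difference of 1.74 where the median over all tested genes was 0.0045. CDX2 had 0.0395 and 0 TPM (34 h), 8.92 and 6.47 (42 h), 5.94 and 6.73 (50 h), 0.370 and 2.16 (72 h), with all middle libraries above all end libraries, but unequal 72 h libraries, and it was not called (limma adjusted p 0.0935). SP8, a zinc finger factor, had 1.75 and 2.12 TPM (34 h), 13.97 and 14.9 (42 h), 21.7 and 16.6 (50 h), 10.9 and 9.99 (72 h), also with separate libraries and no call (limma adjusted p 0.445). Neither FGF8 nor FGF17 was called in either contrast, and WNT8A had its highest values at 72 h (49.4 and 45.8 TPM).

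**Figure D2:**
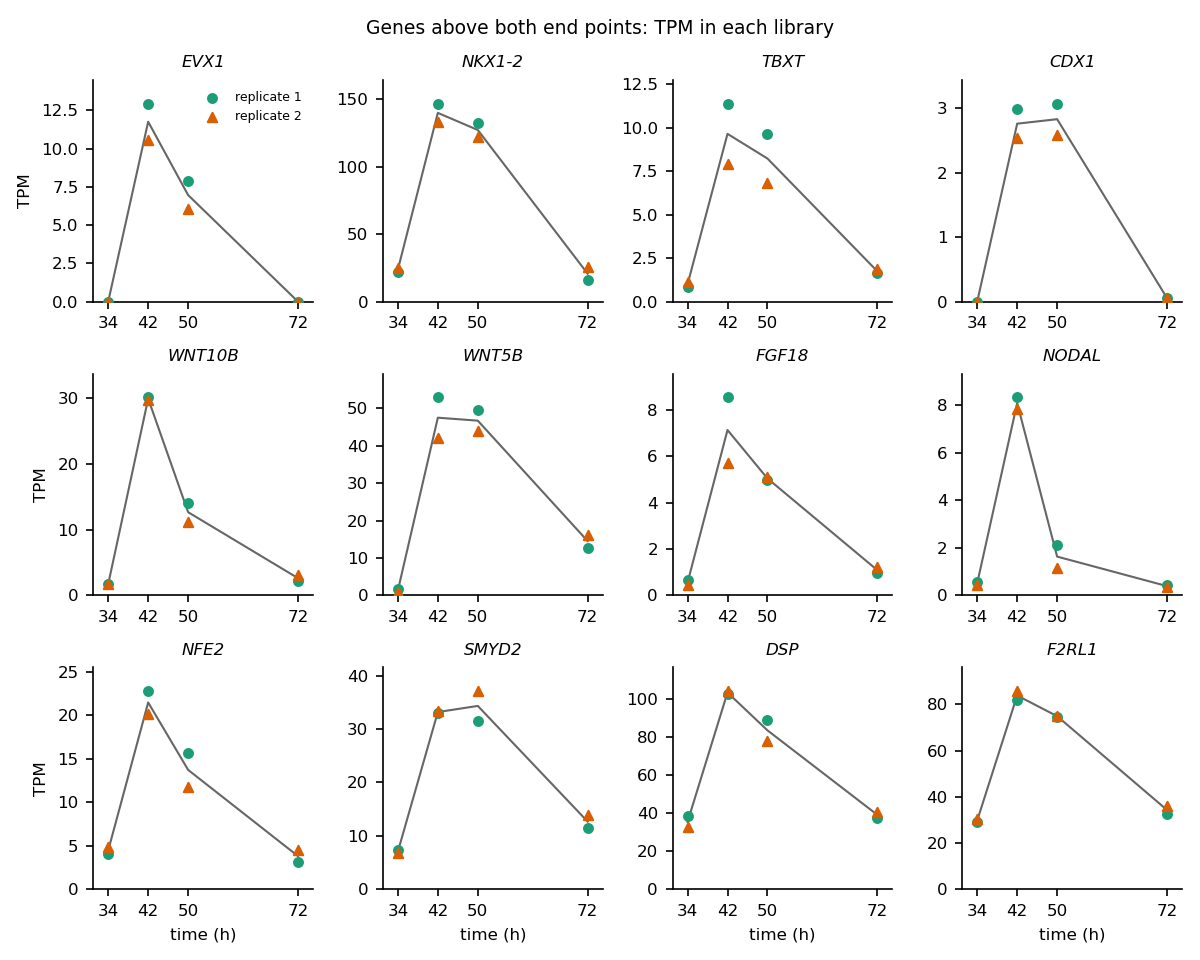
TPM (y axis) against hours of differentiation (x axis) for 12 genes called above both end points, with circles for replicate 1, triangles for replicate 2 and a line through the time point means. In every panel the 4 middle points lie above the 4 end points; NODAL and WNT10B have their highest values at 42 h, and NKX1-2 and WNT5B have like values at 42 h and 50 h.

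WNT10B, WNT5B, FGF18 and NODAL, 4 secreted ligands called above both end points, come from different lists and are grouped here for reading alone. FGF18 was the 1 called above of 10 tested FGF ligands, and NODAL the 1 of 13 tested TGF-beta and BMP genes (0.208% of all tested genes). WNT10B (chromosome 12, 48965340 to 48971763, minus strand) had 1.74 and 1.68 TPM (34 h), 30.1 and 29.7 (42 h), 14.1 and 11.2 (50 h), 2.13 and 3.10 (72 h). The 42 h libraries were the highest and those at 50 h lay between them and the ends, with the middle 2.92 ± 0.16 above 34 h and 2.52 ± 0.16 above 72 h (limma adjusted p 0.00186). WNT5B (chromosome 12, 1529891 to 1647243, plus strand) had 1.69 and 0.918 TPM (34 h), 52.9 and 42.1 (42 h), 49.6 and 43.9 (50 h), 12.7 and 16.3 (72 h). It did not return to its start: the middle was 4.40 ± 0.18 above 34 h and 1.64 ± 0.18 above 72 h (limma adjusted p 0.0139), and 72 h was 2.76 ± 0.21 above 34 h (limma adjusted p 6.52e-05). These were 2 of the 10 tested WNT ligands (0.208% of all tested genes were above both end points). WNT2B and WNT11 had separate libraries without a call, and WNT2B had 2.91 and 2.58 TPM (34 h), 5.01 and 4.25 (42 h), 8.08 and 5.72 (50 h), 2.55 and 2.98 (72 h).

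FGF18 (chromosome 5, 171419656 to 171457623, plus strand) had 0.664 and 0.434 TPM (34 h), 8.53 and 5.72 (42 h), 4.95 and 5.12 (50 h), 0.956 and 1.21 (72 h). Its middle libraries were all above 4 TPM and its end libraries all below 2 TPM, the middle being 2.17 ± 0.20 above 34 h and 1.74 ± 0.20 above 72 h (limma adjusted p 0.0175). NODAL, a ligand of the TGF-beta family (chromosome 10, 70432315 to 70447951, minus strand), had 0.572 and 0.449 TPM (34 h), 8.32 and 7.84 (42 h), 2.10 and 1.16 (50 h), 0.417 and 0.361 (72 h). Most of its excess was at 42 h, and the middle was 1.68 ± 0.21 above 34 h and 1.80 ± 0.21 above 72 h (limma adjusted p 0.0255). FGF19, the other FGF ligand with separate libraries, had 4.003 and 2.87 TPM (34 h), 11.6 and 10.3 (42 h), 4.12 and 4.66 (50 h), 0.906 and 1.14 (72 h) and was not called (limma adjusted p 0.213). In the fits without 1 library, the call of WNT5B was lost without replicate 1 at 42 h, replicate 1 at 50 h, replicate 1 at 72 h or replicate 2 at 72 h (0.0609 to 0.224) and kept without the others (0.0252 to 0.0453). That of FGF18 was kept without replicate 2 at 42 h (0.0344) and lost without each other library (0.0609 to 0.254). That of NODAL was kept without replicate 2 at 50 h (0.0343) and lost without each other library (0.0739 to 0.271).

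TCF/LEF motifs were looked up in these genes because WNT signals act through them. The search took CTTTGAT or CTTTGAA on both strands of RefSeq windows on GRCh38.p14 that run from 250 bases before to 50 bases after a transcript start. Of the 35 called genes 22, and 10750 of the tested genes, had a window. A match lay in 4 of the 41 windows of genes above both end points (9.76%) and in 664 of the 15826 windows of all tested genes (4.20%). The 4 genes were FGF18, TBXT, STOX2 and CXXC5; the STOX2 match lies in coding sequence of another STOX2 transcript and the CXXC5 match spans a transcript start. The matches of the ligand and of the T-box factor are shown on the strand of their gene, with the motif in capitals. The FGF18 match lies at chr5:171419462-171419490 (plus strand), outside any GENCODE 29 gene, and the TBXT match at chr6:166167922-166167950 (minus strand), inside the TBXT gene but in no exon.
FGF18: ggcagggccgcCTTTGATgtgggctgggc
TBXT: ctgcccggcacTTCAAAGcgtgcgcggcc
The FGF18 motif starts 174 bases and the TBXT motif 88 bases before the transcript start. The T-box motif GGTGTGA was in 1 of the 41 windows (2.44%, against 3.03% of all), and the ATF4 element TGATGCAA in 0 (0.512% of all). A match is a description of the sequence, and no binding was measured here.

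Among genes of retinoid handling CYP1B1 was above both end points and CYP26A1 was below both. CYP1B1, a cytochrome P450 that acts on steroids, retinoids and foreign compounds (chromosome 2, 38066973 to 38109902, minus strand), had 1.10 and 1.10 TPM (34 h), 6.83 and 8.29 (42 h), 9.82 and 9.29 (50 h), 1.48 and 2.23 (72 h). The middle was 2.18 ± 0.18 above 34 h and 1.74 ± 0.18 above 72 h (limma adjusted p 0.00978). CYP26A1, which breaks down retinoic acid (chromosome 10, 93073475 to 93077890, plus strand), had 21.7 and 23.5 TPM (34 h), 4.26 and 6.96 (42 h), 2.92 and 6.67 (50 h), 44.9 and 43.3 (72 h). Its middle libraries were all under 7 TPM and its end libraries all above 20 TPM, the middle being -1.98 ± 0.27 against 34 h and -2.92 ± 0.27 against 72 h (limma adjusted p 0.0347). Leaving out 1 library at a time, the call of CYP1B1 was lost without replicate 1 at 50 h, replicate 1 at 72 h or replicate 2 at 72 h (0.0522 to 0.157) and kept without the others (0.0382 to 0.0491). The call of CYP26A1 was kept without replicate 1 at 50 h or replicate 2 at 50 h (0.0408 and 0.0148) and lost without each other library (0.0577 to 0.395). It was also lost with Ensembl rows kept apart (0.0568), without the variance trend (0.106), with 42 h alone as the middle (0.0992) and with 50 h alone (0.0638). Exons of CYP26A1 and CYP1B1 overlap those of AL358613.3 and RMDN2-AS1 on the same strand, so their values are uncertain.

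The start of CYP26A1 holds a retinoic acid response element of the DR5 type, the paired motif that retinoic acid receptors bind. Of the genes below both end points CYP26A1 was the 1 with windows, and the element was in 1 of its 2 windows, in 0 of the 41 windows of genes above, and in 10 of all 15826 windows (0.0632%). It lies at chr10:93073797-93073825 (plus strand), 90 to 74 bases before the RefSeq start and within an untranslated exon of another CYP26A1 transcript in GENCODE 29, and is shown with the element in capitals.
CYP26A1: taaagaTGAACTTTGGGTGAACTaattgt
Of the 9 tested genes with such an element, CYP26A1 was the 1 called. RARB, the retinoic acid receptor beta gene, had one too and had 0.0870 and 0.0436 TPM (34 h), 0.131 and 0.0896 (42 h), 0.278 and 0.239 (50 h), 2.93 and 2.21 (72 h); it was low in the middle as at 34 h, and rose from 34 h to 72 h (limma adjusted p 0.00251). Of the 9, PRSS27 was also higher at 72 h than at 34 h (limma adjusted p 0.0193) and CYB5R2 was lower (limma adjusted p 0.00396), and for the other 6 no difference was called.

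The list of retinoic acid genes had 13 tested members, with 1 called above and 1 below both end points, the latter being CYP26A1 (0.208% and 0.0268% of all tested genes). CYP1B1 is not on that list and so is not the 1 called above. It stands beside CYP26A1 for reading alone. CRABP1, which carries retinoic acid in the cytosol, had 279 and 277 TPM (34 h), 256 and 241 (42 h), 197 and 209 (50 h), 355 and 302 (72 h). All its middle libraries were below all end libraries, but the differences of -0.30 and -0.54 were not called against both ends (limma adjusted p 0.634). ALDH1A2, which makes retinoic acid, had 0.121 and 0.581 TPM (34 h), 1.56 and 2.13 (42 h), 1.14 and 4.004 (50 h), 0.312 and 0.313 (72 h), separate but widely spread and not called (limma adjusted p 0.807). CYP26C1 was lower in the middle than the mean of the ends through 72 h alone, with 36.8 and 22.1 TPM there and under 0.2 TPM in the 6 other libraries.

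**Figure D3:**
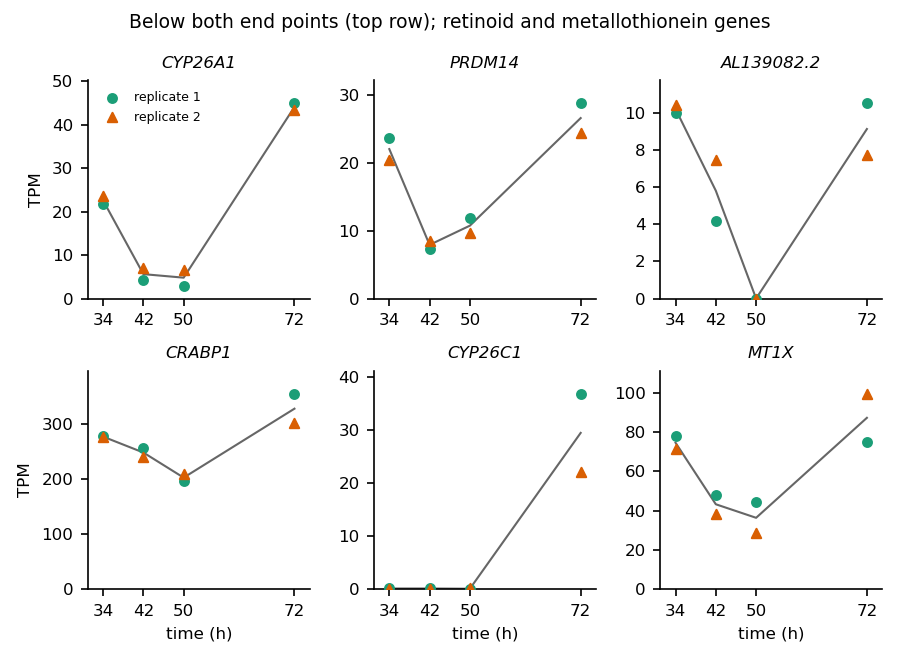
TPM (y axis) against hours of differentiation (x axis) for 3 of the 4 genes below both end points (top row) and for CRABP1, CYP26C1 and MT1X (bottom row), with circles for replicate 1, triangles for replicate 2 and a line through the time point means. CYP26A1 is lowest at the 2 middle time points, and CYP26C1 is near 0 at 34, 42 and 50 h.

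PRDM14 and AL139082.2 were also below both end points. PRDM14, a pluripotency transcription factor (chromosome 8, 70051651 to 70071693, minus strand), had 23.7 and 20.4 TPM (34 h), 7.28 and 8.56 (42 h), 11.9 and 9.64 (50 h), 28.8 and 24.5 (72 h). It was lowest at 42 h, and the middle was -1.17 ± 0.14 against 34 h and -1.43 ± 0.14 against 72 h (limma adjusted p 0.0203). The call was lost without each of the 8 libraries in turn (0.0526 to 0.233). Of the 13 pluripotency genes PRDM14 was the 1 called below both end points and none was called above (0.0268% and 0.208% of all tested genes). POU5F1, TDGF1 and L1TD1 were higher than the mean of the ends while lying between them, with TDGF1 means of 764, 359, 172 and 4.54 TPM over the 4 time points.

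AL139082.2, a pseudogene of 1 row (chromosome 13, 52167954 to 52168321, minus strand), had 10.03 and 10.4 TPM (34 h), 4.18 and 7.45 (42 h), a listed 0 in both libraries (50 h), 10.5 and 7.76 (72 h). The 42 h libraries lay between the end points and the listed 0 of 50 h (limma adjusted p 0.0155). This call was kept without replicate 1 at 42 h or replicate 2 at 42 h (0.0382 and 0.0260) and lost without each other library (0.0554 to 0.269). Its exons overlap those of MRPS31P5 and AL158066.1 on the same strand, so its values are uncertain.

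The other genes called above both end points are grouped here for reading alone, by no list or test. NFE2, a basic leucine zipper factor known from blood cells (chromosome 12, 54292111 to 54301121, minus strand), had 4.07 and 4.82 TPM (34 h), 22.8 and 20.2 (42 h), 15.6 and 11.8 (50 h), 3.14 and 4.44 (72 h). It stood 1.73 ± 0.17 above 34 h and 1.93 ± 0.17 above 72 h (limma adjusted p 0.00978). SMYD2, a lysine methyltransferase (chromosome 1, 214281102 to 214337131, plus strand), had 7.25 and 6.82 TPM (34 h), 32.98 and 33.4 (42 h), 31.6 and 37.1 (50 h), 11.5 and 13.8 (72 h). Its 4 middle libraries lay within 31 to 38 TPM, 2.11 ± 0.12 above 34 h and 1.35 ± 0.12 above 72 h (limma adjusted p 0.00713), and 72 h was still 0.76 ± 0.14 above 34 h (limma adjusted p 0.00625). STOX2, a winged helix protein, had 5.45 and 3.81 TPM (34 h), 15.2 and 18.1 (42 h), 18.7 and 15.3 (50 h), 5.58 and 6.66 (72 h) (limma adjusted p 0.0283). This call was lost with the replicate block (0.0502).

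SALL3, a zinc finger factor, had 19.3 and 18.3 TPM (34 h), 34.99 and 35.6 (42 h), 39.6 and 32.9 (50 h), 16.04 and 17.6 (72 h). SOX9, a factor of neural crest and glia, had 14.97 and 13.5 TPM (34 h), 27.9 and 27.5 (42 h), 26.3 and 27.7 (50 h), 16.1 and 15.99 (72 h). Both stayed under a difference of 1 on the log2 scale from at least 1 end point, with limma adjusted p-values of 0.0240 and 0.0376; SOX9 was lost with the replicate block (0.0671). CXXC5, a zinc finger protein that binds Dishevelled, had 53.3 and 51.8 TPM (34 h), 152 and 130.3 (42 h), 136 and 118 (50 h), 74.8 and 80.7 (72 h) (limma adjusted p 0.0255). SOCS1, a suppressor of cytokine signalling, had 16.9 and 14.6 TPM (34 h), 42.03 and 32.2 (42 h), 46.1 and 32.3 (50 h), 15.3 and 15.3 (72 h) (limma adjusted p 0.0390). Leaving out 1 library at a time, NFE2 was lost without replicate 1 at 34 h, replicate 2 at 34 h, replicate 1 at 42 h or replicate 1 at 72 h (0.0609 to 0.115) and kept without the others (0.0305 to 0.0471). CXXC5, SALL3 and SOCS1 were each called without replicate 2 at 50 h (limma adjusted p 0.0440, 0.0346 and 0.0343) and not without any other library. The calls of STOX2 and SOX9 were lost without each library in turn (0.0659 to 0.369 and 0.103 to 0.369). SMYD2 was lost without replicate 1 at 72 h (0.112) and kept without the others (0.0252 to 0.0477).

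DSP, desmoplakin, which anchors intermediate filaments at desmosomes (chromosome 6, 7541575 to 7586717, plus strand), had 38.1 and 32.5 TPM (34 h), 103 and 104 (42 h), 88.9 and 77.9 (50 h), 37.4 and 40.7 (72 h). F2RL1, a receptor cleaved by proteases (chromosome 5, 76818933 to 76835315, plus strand), had 29.03 and 30.4 TPM (34 h), 81.96 and 85.7 (42 h), 74.6 and 75.1 (50 h), 32.7 and 35.8 (72 h). Replicates of both genes were close, and the middle was 1.37 ± 0.10 above 34 h and 1.23 ± 0.10 above 72 h for DSP and 1.39 ± 0.09 above 34 h and 1.19 ± 0.09 above 72 h for F2RL1 (limma adjusted p 0.00517 and 0.00214). LIMCH1, an activator of non-muscle myosin, had 10.8 and 11.2 TPM (34 h), 21.99 and 26.2 (42 h), 28.8 and 29.7 (50 h), 7.69 and 7.89 (72 h). Middle levels were 1.19 ± 0.11 above 34 h and 1.65 ± 0.11 above 72 h (limma adjusted p 0.00843). EGFLAM, an extracellular matrix protein, had 0.532 and 0.336 TPM (34 h), 13.2 and 7.73 (42 h), 12.7 and 11.5 (50 h), 3.12 and 3.38 (72 h). At 72 h it lay between the 34 h and the middle libraries, the middle being 3.07 ± 0.21 above 34 h and 1.50 ± 0.21 above 72 h (limma adjusted p 0.0412). ELMOD1, a GTPase-activating protein, had a like course with 0.243 and 0.258 TPM (34 h), 9.86 and 10.9 (42 h), 10.1 and 9.90 (50 h), 2.46 and 2.48 (72 h). The middle libraries averaged 3.16 ± 0.15 above 34 h and 1.69 ± 0.15 above 72 h (limma adjusted p 0.00653).

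TMTC1, a mannosyltransferase of the endoplasmic reticulum, had 22.7 and 23.8 TPM (34 h), 42.8 and 44.8 (42 h), 55.4 and 57.1 (50 h), 25.8 and 28.4 (72 h). VSNL1, a calcium sensor, had 10.4 and 8.77 TPM (34 h), 25.8 and 28.6 (42 h), 16.6 and 15.6 (50 h), 4.57 and 5.02 (72 h). From 34 h to 72 h it fell by 0.87 (log2; limma adjusted p 0.00382). The limma adjusted p-values of TMTC1 and VSNL1 against both end points were 0.0125 and 0.0190. In the fits without 1 library, the calls of DSP and ELMOD1 were lost without replicate 1 or replicate 2 at 72 h (0.112 and 0.0522 for DSP, 0.112 and 0.0761 for ELMOD1), and that of F2RL1 without replicate 1 at 72 h (0.0740). LIMCH1 was lost without replicate 1 at 34 h, replicate 2 at 34 h or replicate 1 at 72 h (0.0740 to 0.0938) and kept without the others (0.0343 to 0.0471). EGFLAM was kept without replicate 2 at 42 h (0.0344) and lost without each other library (0.0758 to 0.485). TMTC1 was kept without replicate 2 at 50 h (0.0453) and lost without each other library (0.0521 to 0.214), and VSNL1 was lost without each of the 8 libraries in turn (0.0607 to 0.224).

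GCNT1, which branches O-linked glycans, had 14.5 and 16.1 TPM (34 h), 66.5 and 59.01 (42 h), 54.4 and 40.3 (50 h), 21.9 and 21.6 (72 h). Its middle level was 1.76 ± 0.13 above 34 h and 1.28 ± 0.13 above 72 h (limma adjusted p 0.0121). GSTO1, a glutathione transferase, had 77.2 and 90.1 TPM (34 h), 214 and 182 (42 h), 158 and 153 (50 h), 65.6 and 74.9 (72 h). It lay 1.06 ± 0.11 above 34 h and 1.31 ± 0.11 above 72 h (limma adjusted p 0.00978). PLA2G7, a secreted phospholipase, had 5.27 and 4.86 TPM (34 h), 14.2 and 15.2 (42 h), 13.7 and 14.1 (50 h), 5.38 and 6.16 (72 h) (limma adjusted p 0.0123). In all 3 the lowest middle library lay above the highest end library, as in every gene called above both end points. CA2, a carbonic anhydrase, had 9.89 and 9.73 TPM (34 h), 24.6 and 22.98 (42 h), 29.5 and 34.5 (50 h), 13.3 and 16.1 (72 h) (limma adjusted p 0.0412, and 0.0625 with the replicate block). AC007906.2, a locus listed as protein coding, had 8.54 and 8.47 TPM (34 h), 17.1 and 19.2 (42 h), 15.6 and 18.3 (50 h), 6.84 and 8.75 (72 h) (limma adjusted p 0.0471). Leaving out 1 library at a time, GCNT1 was lost without replicate 1 at 42 h, replicate 1 at 72 h or replicate 2 at 72 h (0.0609 to 0.206) and kept without the others (0.0124 to 0.0491). GSTO1 was lost without replicate 1 at 34 h, replicate 2 at 34 h or replicate 1 at 72 h (0.0514 to 0.112) and kept without the others (0.0308 to 0.0471). PLA2G7 was kept without replicate 2 at 50 h (0.0453) and lost without each other library (0.0560 to 0.209). CA2 was lost without each of the 8 libraries in turn (0.0859 to 0.523), and AC007906.2 was lost without each of the 8 libraries in turn (0.102 to 0.448).

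HMGCS1 and ACAT2, which act at the start of cholesterol synthesis, were the called genes with the lowest smaller difference from an end point. HMGCS1 had 248 and 227 TPM (34 h), 386 and 383 (42 h), 309.7 and 297 (50 h), 149 and 159.9 (72 h). The middle mean was 0.53 ± 0.07 above 34 h and 1.14 ± 0.07 above 72 h (limma adjusted p 0.0347, and 0.0518 with the replicate block). ACAT2 had 126 and 133 TPM (34 h), 211 and 189 (42 h), 227 and 219.9 (50 h), 95.9 and 111 (72 h). Middle values averaged 0.70 ± 0.09 above 34 h and 1.03 ± 0.09 above 72 h (limma adjusted p 0.0240). HMGCS1 was lost without each of the 8 libraries in turn (0.0724 to 0.427). ACAT2 was likewise lost without each of the 8 libraries in turn (0.0605 to 0.248). Of the 13 cholesterol synthesis genes tested (ACAT2 is not on that list), all 13 had a middle mean above both end points, against 3384 of the 14908 tested genes. Against the mean of the ends 10 of the 13 were called higher and 0 lower (3.05% and 1.24% of all tested genes), with a median difference of 0.43. Libraries were separate for HMGCS1, INSIG1, IDI1, DHCR7 and SCD, and HMGCS1 alone was called above both end points. The differences from 34 h were small in most, with 0.18 for MSMO1.

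**Figure D4:**
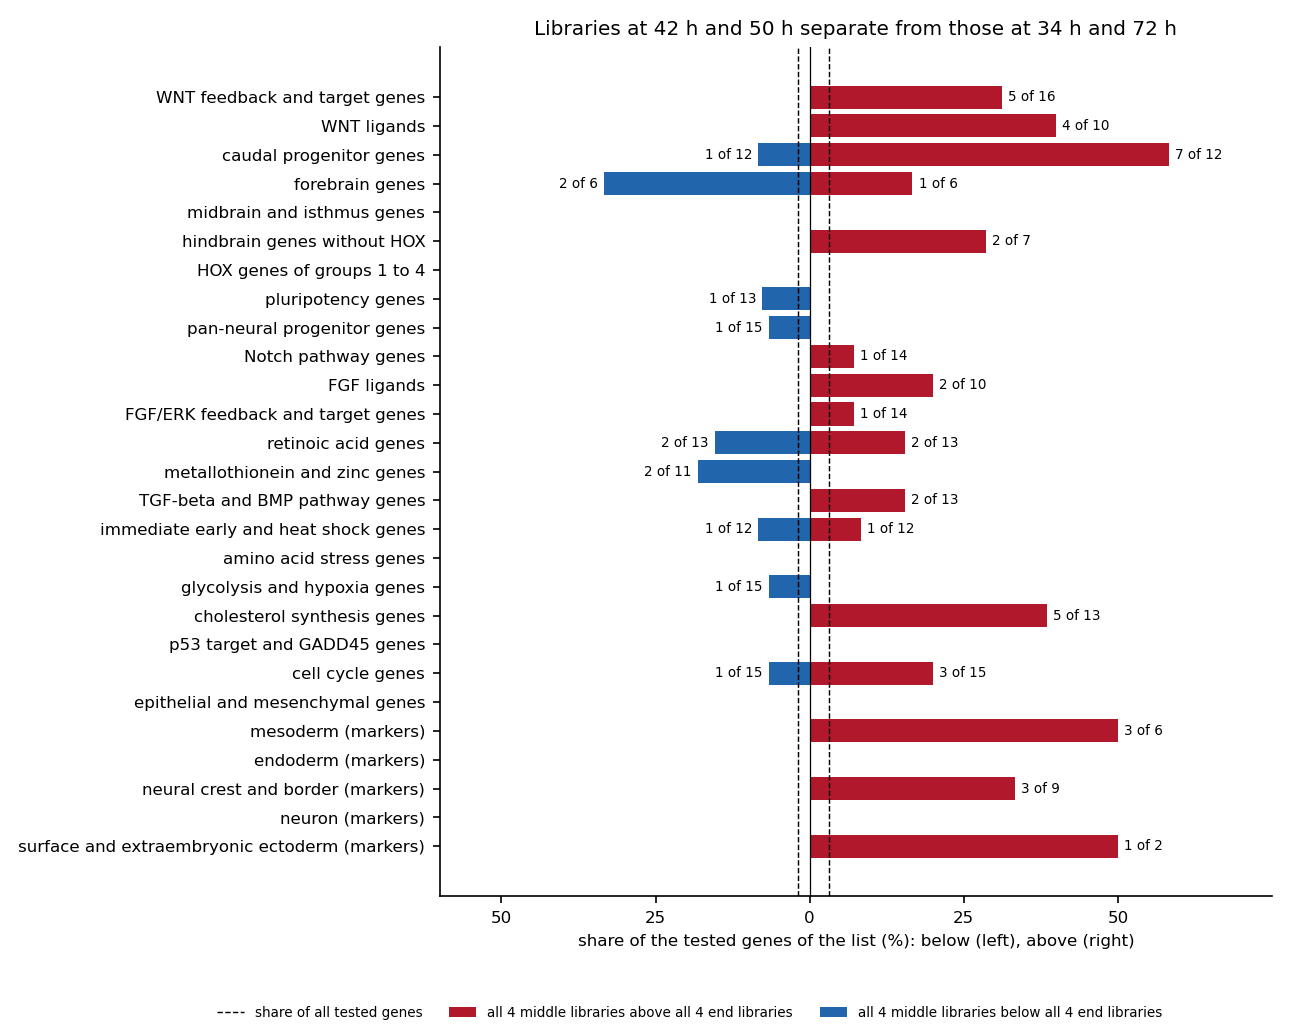
Share of the tested genes of each list (x axis, in percent) whose 4 middle libraries all lie above (red, right) or below (blue, left) the 4 end libraries, with the counts beside each bar; dashed lines mark the shares over all tested genes. Caudal progenitor genes have 7 of 12 above, cholesterol synthesis genes 5 of 13 and WNT ligands 4 of 10.

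Of the 16 tested feedback and target genes of WNT signalling, 10 were higher in the middle than the mean of the ends (3.05% of all tested genes). By limma 0 were called above both end points. At an unadjusted p under 0.05, 5 of the 16 were above both, where 293 of the 14908 tested genes were. AXIN2, LEF1, TCF7, DKK4 and WIF1 had separate libraries. AXIN2, a scaffold of the complex that degrades beta-catenin, was 2.32 above 34 h and 0.47 above 72 h. It was not called against both end points together (limma adjusted p 0.634). Taken singly, the differences from 34 h and from 72 h had limma adjusted p-values of 5.14e-05 and 0.0426. DKK4, a secreted WNT antagonist, had 0 and 0.101 TPM (34 h), 5.19 and 4.49 (42 h), 0.412 and 0.399 (50 h), a listed 0 in both libraries (72 h). It peaked at 42 h and came nearest of this list to the threshold (limma adjusted p 0.0533). For SP5 and RNF43, and for GBX2 of the hindbrain list, no difference from 72 h was called (limma adjusted p 0.486, 0.700 and 0.461), with SP5 means of 164, 188 and 198 TPM from 42 h on.

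In the forebrain, midbrain, hindbrain and HOX lists, 23 tested genes in all, limma called 0 beyond both end points. At an unadjusted p under 0.05, 3 were above and 2 below, where 293 and 125 of the 14908 tested genes were. The 6 forebrain genes tested had 1 higher and 3 lower than the mean of the ends (3.05% and 1.24% of all tested genes). HESX1 and SHISA2, 2 genes of the anterior neural plate, were separate below, with SHISA2 means of 15.1, 4.78, 5.51 and 10.1 TPM (limma adjusted p 0.630 against both ends). LHX2 was separate above, with means of 0.481, 3.16, 2.79 and 0.742 TPM (limma adjusted p 0.202). IRX3 and IRX5, homeobox genes of the hindbrain list, were separate above as well, and IRX3 had 3.46 and 2.61 TPM (34 h), 8.92 and 8.64 (42 h), 6.23 and 6.99 (50 h), 4.07 and 3.52 (72 h) (limma adjusted p 0.141). None of the 5 midbrain genes was called. EGR2, HOXB1 and HOXB2 were lower than the mean of the ends with means under 2 TPM at 34, 42 and 50 h and their highest at 72 h. Of the 15 pan-neural genes 5 were lower than the mean of the ends and 0 higher (1.24% and 3.05% of all tested genes), among the 5 SOX1 and SOX2, whose means were also highest at 72 h; 0 were called beyond both end points (0 above and 1 below at an unadjusted p under 0.05).

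Metallothionein and zinc genes were lower in the middle than the mean of the ends in 7 of 11 tested members, with 0 higher and a median of -0.77 (1.24% and 3.05% of all tested genes were lower and higher). By limma 0 members were called below both end points. At an unadjusted p under 0.05, 4 of the 11 were below both, where 125 of the 14908 tested genes were. MT1X had 77.9 and 71.2 TPM (34 h), 48.1 and 38.3 (42 h), 44.3 and 28.3 (50 h), 75.1 and 99.4 (72 h), with separate libraries and differences of -0.92 and -1.13 (limma adjusted p 0.263). SLC30A1, the zinc exporter, had 7.68 and 7.64 TPM (34 h), 4.87 and 4.75 (42 h), 4.75 and 4.44 (50 h), 10.95 and 9.02 (72 h), also separate (limma adjusted p 0.360). MT2A was lower through its difference from 34 h, with means of 210.4, 95.7, 53.8 and 56.8 TPM. The MT1 genes are near-identical copies, so the split of reads among them is uncertain. 

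The remaining lists held few genes beyond both end points. Amino acid stress genes had 6 of 14 members higher than the mean of the ends and 1 lower, and epithelial and mesenchymal genes 4 of 12 higher (3.05% of all tested genes were higher and 1.24% lower), with 0 separate members in either list. ASNS, asparagine synthetase, had means of 309, 308, 266 and 86.1 TPM, and CDH1, E-cadherin, of 143, 141, 99.9 and 12.1 TPM, so both stood above 72 h and not above 34 h. Among FGF/ERK feedback genes 3 of 14 were higher, and DUSP5, a phosphatase, had separate libraries (limma adjusted p 0.319 against both ends). The TGF-beta and BMP list had NODAL above both end points, and FST, the activin antagonist, was higher than the mean of the ends while 72 h was its highest time point (13.4 and 14.8 TPM at 34 h, 933 and 877 TPM at 72 h). Cell cycle genes had 2 of 15 higher and 0 lower. Of the 15, 3 were separate above, among them MCM3, and 1 separate below (3.21% and 1.90% of all tested genes). Notch, immediate early, glycolysis and p53 genes had between 0 and 2 members higher and between 0 and 1 lower, and 0 called beyond both end points by limma. At an unadjusted p under 0.05, 1 was above and 1 below, where 293 and 125 of the 14908 tested genes were.

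Markers of other cell types were summed, since genes above both end points include markers of the primitive streak. Of 14 mesoderm markers, 6 were under 1 TPM in every library, and MSGN1 was at 0 in all. The summed level of the list was 13.1 to 13.8 TPM at 34 h, 12.8 to 19.3 TPM in the middle and 10.2 to 10.3 TPM at 72 h. MIXL1, EOMES and LHX1, 3 of the 6 tested mesoderm markers, were separate above at low levels (3.21% of all tested genes). Against the mean of the ends 3 of the 6 were higher and 0 lower (3.05% and 1.24% of all tested genes), and 0 were called beyond both end points. MIXL1 had 0.115 and 0.108 TPM (34 h), 1.66 and 1.32 (42 h), 1.47 and 1.81 (50 h), 0.333 and 0.290 (72 h). SOX17 was at 0 in every library, and the endoderm sum went from 15.4 to 17.3 TPM at 34 h to 8.73 to 15.1 TPM in the middle and 7.82 to 8.75 TPM at 72 h. Neural crest and border markers summed to 25.5 to 28.4, 39.5 to 43.5 and 36.0 to 37.5 TPM. Of the 9 tested, SOX9, MSX1 and TWIST1 were separate above (3.21% of all tested genes). Against the mean of the ends 3 of the 9 were higher and 0 lower (3.05% and 1.24% of all tested genes). Neuron markers summed to 225 to 277, 255 to 334 and 198 to 233 TPM, and surface and extraembryonic ectoderm markers to 10.7 to 18.05, 15.9 to 19.4 and 6.65 to 11.3 TPM, with CDX2 as the separate gene. The part of such cells in the calls was not tested. Of markers of the labelled stem cells, POU5F1 and SOX2, the latter a neural progenitor gene as well, were higher than 100 TPM in all libraries, and NANOG was under 3 TPM in all. The neural progenitor gene PAX6 was under 1 TPM and SOX1 under 7 TPM at 34, 42 and 50 h.

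Return to the starting level was tested by 72 h against 34 h. Of the 35 called genes 11 (31.4%) differed between the end points, 7 higher and 4 lower at 72 h, where 3578 of all tested genes did (24.0%). Among the 7 were WNT5B, ELMOD1, EGFLAM, SMYD2, CXXC5 and CA2, and the 4 were VSNL1, HMGCS1, LIMCH1 and ACAT2. The widest gaps were those of WNT5B (2.76 ± 0.21 on the log2 scale), EGFLAM (1.57 ± 0.24) and ELMOD1 (1.47 ± 0.17). For the other 24 genes, EVX1, NKX1-2 and TBXT among them, no difference was called, which does not show that the levels were equal. Without replicate 1 at 34 h or 72 h, 2175 and 1867 of all tested genes differed, and without replicate 2 at 34 h or 72 h 1935 and 1968.

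Within the middle, 19 of the 31 genes had the higher mean at 42 h and 12 at 50 h. The test of 50 h against 42 h called 1 of the 35, AL139082.2, where it called 14 of all tested genes (0.0939%). Of the 31 genes above both end points, NODAL and WNT10B fell most from 42 h to 50 h on the log2 scale by value, with WNT10B means of 29.9 and 12.7 TPM and NODAL means of 8.08 and 1.63 TPM (limma adjusted p 0.0745 and 0.0511). When each of 42 h and 50 h had to differ from each end point, 8 genes were called above and 0 below, DSP, ELMOD1, EVX1, F2RL1, NKX1-2, SMYD2 and WNT10B among them. With a minimum log2 difference of 1 from each end point, 2 remained, EVX1 and WNT10B.

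Other settings ended the calls of part of the 35 genes. Without the filter on low values 25 calls were lost, among them those of TBXT, WNT5B, FGF18, NODAL, CYP1B1, CYP26A1, PRDM14 and NFE2. Without the variance trend 12 were lost, among them those of SOX9, STOX2, SALL3, CXXC5, SOCS1, CA2, HMGCS1 and ACAT2, and with Ensembl rows kept apart 7, SALL3, SOCS1, CA2 and EGFLAM among them. With 42 h alone as the middle 12 were lost, AL139082.2, ACAT2, TMTC1 and CA2 among them, and with 50 h alone 17, TBXT, FGF18, NODAL, PRDM14 and GCNT1 among them. EGFLAM was also lost with a pseudocount of 0.1 (limma adjusted p 0.0774). AC007906.2 was lost under each scaling alternative (limma adjusted p 0.0553 to 0.0626).

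**Figure D5:**
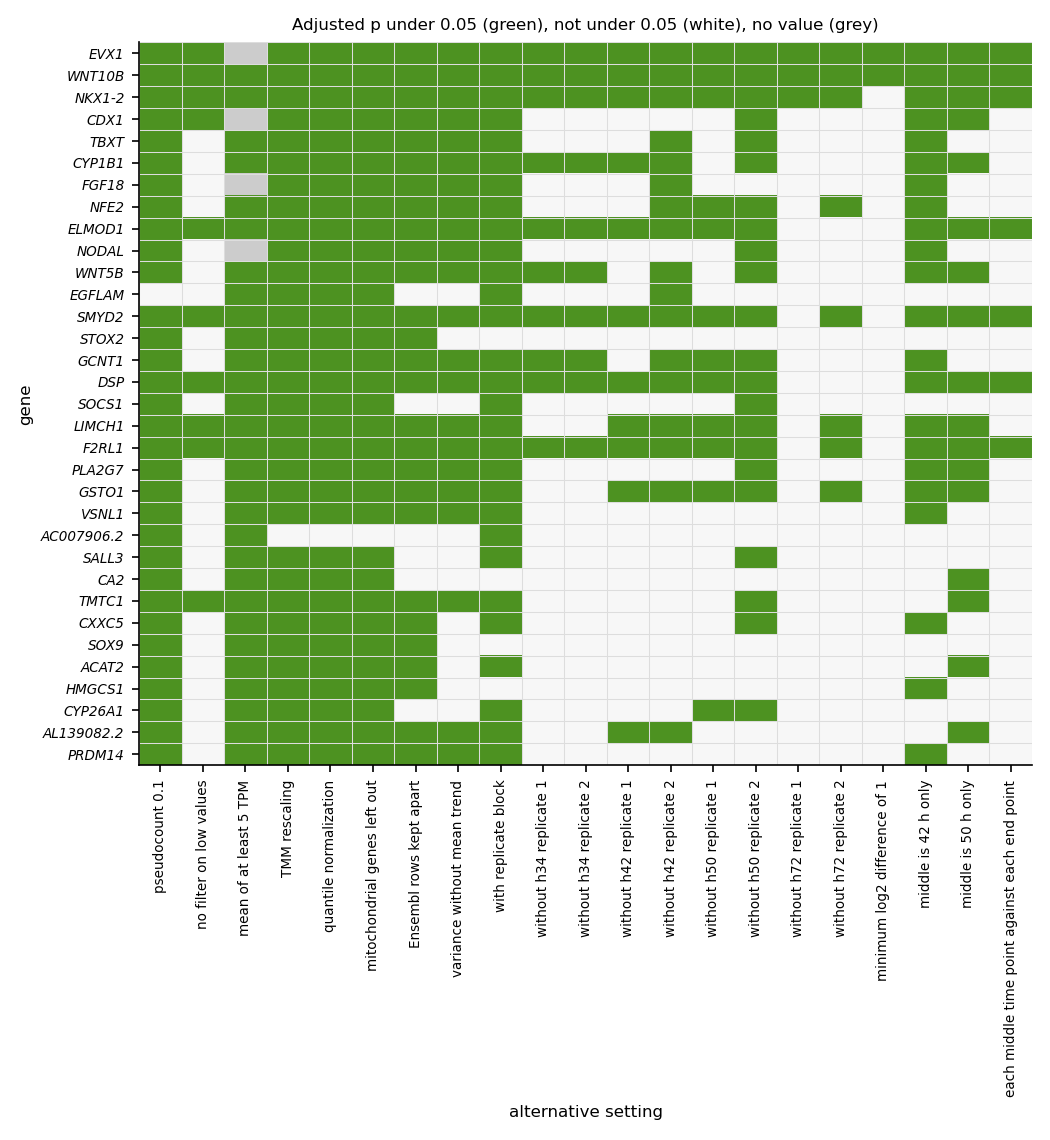
For 33 of the 35 called genes (y axis) and each alternative setting (x axis), green marks an adjusted p under 0.05 against both end points, white one not under 0.05 and grey no value, where the gene failed the stricter filter; h34 to h72 name the time points. The rows of EVX1 and WNT10B are green wherever they have a value, the column of a minimum log2 difference of 1 has those 2 alone, and the columns that leave out 1 library keep 3 to 23 of the 35.

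Of the 35 genes, 33 are listed as protein coding by GENCODE 29, and 13 are on the gene or marker lists. The 34 with a GENCODE 29 position lie on 16 chromosomes, with 6 on chromosome 5. Exons of 10 of them overlap exons of a gene on the opposite strand, as EVX1 with EVX1-AS and ACAT2 with TCP1, and whether strand was used in quantification is not given in the sources used here.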

How the data were processed

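RNA was measured in 8 libraries of 1 cell line, 2 at each of 4 time points. The authors deposited TPM per Ensembl gene in 1 table, made with Salmon 1.9.0 on GRCh38 per the submitters' processing notes; the annotation, strand setting and filters are not given in the sources used here. TPM summed to 1000000 in each library, so the read depth is unknown and no counting interval or floor was computed, and precision rests on 2 libraries per time point. From 13860 to 14004 genes reached 1 TPM in a library, mitochondrial genes held 8.70% to 11.2% of TPM, Spearman correlations within a time point were 0.980 to 0.984, and the median standard deviation between replicates was 0.169 (log2).

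The 37951 rows were summed to 35940 symbols (1034 had several rows), and 0 columns of values were unused. Genes that reached 1 TPM in 2 or more libraries were tested on log2(TPM + 1), a pseudocount of 1, with limma 3.58.1 in R 4.3.3: 1 mean per time point, a variance that followed the mean level, 4 residual degrees of freedom, two-sided p-values and Benjamini-Hochberg adjustment over all tested genes. The call against both end points takes the larger of the p-values of both differences where their signs agree, and 1 otherwise (an intersection-union test). SE are limma's moderated errors. Positions are those of GENCODE 29, through the Ensembl identifier, for 34 of the 35 called genes. Motif windows are RefSeq's. The procedure was tested on simulated data with known changes.

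Named genes were those on 22 gene lists and 5 marker lists (357 genes, 276 tested), and, by the size of the smaller difference, up to 14 genes per direction called with separate libraries and at least 5 TPM. Other called genes are named as members of the set of 35, and results of some genes are not reported here. MRPS31P5 and AL158066.1, the antisense or overlapping genes, and PRSS27 and CYB5R2, were named after the values were seen. The members, lists and tests were chosen with earlier results of these data known.

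The batch label pairs the libraries. Differences between replicates correlated at 0.0949, 0.195 and 0.142 among 34, 42 and 50 h, and at -0.0445, -0.0779 and -0.104 between 72 h and each of these. With the replicate block 29 genes were above both end points and 3 below, 30 of the 32 being among the 35. Alternatives were another pseudocount, no or a stricter filter, a trimmed mean of log ratios (TMM, unweighted), quantile normalization, mitochondrial genes left out, Ensembl rows apart, no variance trend, the block, single libraries left out, a minimum difference, 42 h or 50 h alone, each middle time point against each end point, and 2 pooled means.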

Additional observations from a re-analysis of the deposited data

Results flagged for a closer look

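AL139082.2, a pseudogene on chromosome 13, differed between the middle time points by -2.73 on the log2(TPM + 1) scale (50 h minus 42 h, limma adjusted p 0.0185), the 1 such difference among the 35 called genes. It had 4.18 and 7.45 TPM at 42 h and was listed at 0 in both 50 h libraries, so the size of the difference depends on the pseudocount.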

How the results depend on the processing

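Depth is unknown, and 2 libraries per time point limit every call. Scaling (TMM, quantile normalization, mitochondrial genes left out) gave 31 to 32 genes above both end points and 4 below. Without the filter on low values 12 were above and 0 below (393 and 147 at an unadjusted p under 0.05), 268 and 105 were higher and lower than the mean of the ends, and 8 differed between 42 h and 50 h. Without the variance trend 2 were below, and 27 differed between 42 h and 50 h; that count was 24 under a filter of 5 TPM on the mean and 4 with Ensembl rows apart.

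Leaving out 1 library at a time gave 3 to 24 genes above and 0 to 2 below both end points, 200 to 317 higher and 55 to 130 lower than the mean of the ends, 1867 to 3629 for 72 h against 34 h and 1 to 8 for 50 h against 42 h; these fits have fewer samples. A minimum log2 difference of 1 gave 2 above and 0 below (24 and 3 at an unadjusted p under 0.05), 12 higher and 1 lower, 352 between 72 h and 34 h and 1 between 50 h and 42 h. With 42 h alone as the middle 2 genes were below both end points. With 50 h alone 20 were above both, and 228 and 69 were higher and lower than the mean of the ends. Each middle time point against each end point gave 8 above and 0 below (137 and 37 at an unadjusted p under 0.05). Pooled means of 4 middle and 4 end libraries gave 31 higher and 4 lower, 28 of the 35 being among the genes beyond both end points; that these counts equal those beyond both end points is a coincidence of number. The cause of these moves was not tested.

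The replicate block gave 7 genes for 50 h against 42 h. Beside the calls lost with the block that stand in the report, CBLN1 (limma adjusted p 0.0707 without and 0.0186 with the block) and TNFRSF11B (0.117 and 0.0398) were gained above both end points, and both were named after their values were seen. Of 2357 alternative values for 117 named genes, 1620 kept their direction and side of the threshold, 736 lost the call and 1 turned sign: MEIS2 against the mean of the ends, at -0.058 with 42 h alone as the middle.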
